A study of Homo sapiens with 6 samples.

Results

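Collagens, matrix glycoproteins and the enzymes that modify collagen were followed as 1 set of 49 genes in 143B cells, a human osteosarcoma line, after 24 h with PBS or with TPBC-PEG. Its genes are given by name, with no threshold on measured values. They were chosen with earlier results of these data known, so the shares of calls below describe the set and do not test it. It holds 17 collagen chains, 21 glycoproteins and proteoglycans, and 11 collagen-modifying enzymes. All 49 were found among the 60683 rows of the count table, and 45 had enough counts to be tested among 15846 genes. COL1A2, COL3A1, COL11A1 and LUM were too low to test.

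RNA sequencing was done on 3 libraries of cells given PBS and 3 of cells given TPBC-PEG, and the series title names photodynamic therapy, in which light makes a compound form reactive oxygen. The titles give a TPBC-PEG dose of 3 µM and the treatment protocol one of 300 µM, so the dose is not settled. The series design text names photodynamic treatment together with TPBC-PEG for the treated cells, while the sample labels mention no light, so whether these cells were illuminated is not settled either. Both groups are the same cell line with no other difference named. The labels do not say that replicates were separate cultures, so the p-values rest on sample-to-sample spread alone, and that spread may be technical.

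Collagens are made of 3 chains wound into a triple helix in the endoplasmic reticulum. Prolyl and lysyl hydroxylases modify the chains there, proteases trim the secreted procollagen, and lysyl oxidases link the fibres outside the cell. Basement membranes are sheets built of type IV collagen and laminins, joined by nidogens and the proteoglycan perlecan, while fibronectin and the thrombospondins connect cells to the matrix. Osteoblasts, the bone-forming cells that osteosarcomas resemble, secrete mainly type I collagen.

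Library totals ran from 15726323 to 20486584 counts. The common biological coefficient of variation was 4.19%. Of 7 osteoblast lineage markers, SP7 reached at most 3 counts and BGLAP at most 1 count in a library, while RUNX2 (17.6 ± 1.60 CPM with PBS, SD, n = 3) and SPP1 (17.8 ± 1.51 CPM) were present and rose by 0.55 and 0.79 on the log2 scale (edgeR's quasi-likelihood test, adjusted p = 5.57e-07 and 1.45e-11). SPARC, the most abundant of the 7, fell by 0.18 from 413 ± 12.6 CPM (adjusted p = 0.000175), COL1A1 also fell, and ALPL was not called. The lineage list summed to 466 to 491 CPM in PBS libraries and 431 to 467 CPM in TPBC-PEG libraries. The 4 mesenchymal markers summed to 2649 to 2692 CPM with PBS and 2398 to 2486 CPM with TPBC-PEG. Nearly all of it was VIM, at 2577 ± 22.6 CPM with PBS, with CDH2 at 98.8 ± 2.42 CPM. S100A4 stood at only 1.22 ± 0.195 CPM with PBS, and THY1 reached at most 8 counts in a library. The 5 endothelial markers summed to at most 1.40 CPM and the 6 leukocyte markers to at most 1.22 CPM in a library. The 6 epithelial markers summed to 902 to 942 CPM with PBS and 679 to 742 CPM with TPBC-PEG, nearly all of it KRT8 and KRT18, with KRT14 at 0 in every library and CDH1 at no more than 3 counts. EPCAM stood at 16.1 ± 1.41 CPM with PBS and 17.0 ± 0.640 CPM with TPBC-PEG and was not called (adjusted p = 0.593). KRT8 and KRT18 fell by 0.21 and 0.42 on the log2 scale (adjusted p = 0.000126 and 4.98e-13), and their part in the results below was not tested. In a bulk sample, fewer cells that make a transcript and less transcript per cell cannot be told apart.

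Most of the matrix genes were lower with TPBC-PEG, and a few enzymes and tenascin C were higher. Levels are given in CPM (counts scaled to a common library size), scaled between libraries by the trimmed mean of M values (TMM). Of the 45 tested genes 34 fell and 4 rose at an adjusted p under 0.05, the threshold for a call. Among all 15846 genes 16.9% were called lower, 16.2% higher and 33.2% in either direction. The median log2 fold change of TPBC-PEG over PBS was -0.30 for the 45 genes and 0.01 for all genes. The 3 values of 1 group lay wholly outside those of the other in 38 of the 45 genes, against 43.4% of all genes. Most changes were below 1.5-fold, since 5 of the 34 that fell and 1 of the 4 that rose were past that size.

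The 3 classes differed in how their summed level moved. Collagens summed to 1295, 1368 and 1319 CPM in the PBS libraries and to 1019.6, 1032 and 1087 CPM in the TPBC-PEG libraries, a mean change of -21.2%. Glycoproteins and proteoglycans summed to 2729 ± 28.1 CPM (SD, n = 3) with PBS and 2263 ± 89.8 CPM with TPBC-PEG, a change of -17.1%. Both classes were lower in every TPBC-PEG library than in any PBS library. The enzymes summed to 827, 852 and 834 CPM with PBS and 812, 836 and 821 CPM with TPBC-PEG, and these ranges overlapped. Within this sum 6 of the 11 enzymes fell and 3 rose, and LOX went from 79.7 ± 1.67 to 142 ± 11.7 CPM. The mean enzyme sum was 838 CPM with PBS and 823 CPM with TPBC-PEG although LOX rose, so the other enzymes together were lower on average. Library by library no enzyme sum was taken without LOX. The overlap therefore does not show that the enzymes as a class were unchanged. Without FN1 the glycoproteins still differed by -15.3%. Without COL1A1 the collagens differed by -21.0%, but COL1A1 made up only 27.4 of their 1327 CPM with PBS, so leaving it out could change little. Within each library the collagen sum divided by the enzyme sum needs no scaling between libraries. This ratio was 1.57, 1.61 and 1.58 with PBS and 1.26, 1.24 and 1.32 with TPBC-PEG. Its enzyme sum includes LOX, whose rise lowers the ratio.

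**Figure D1:**
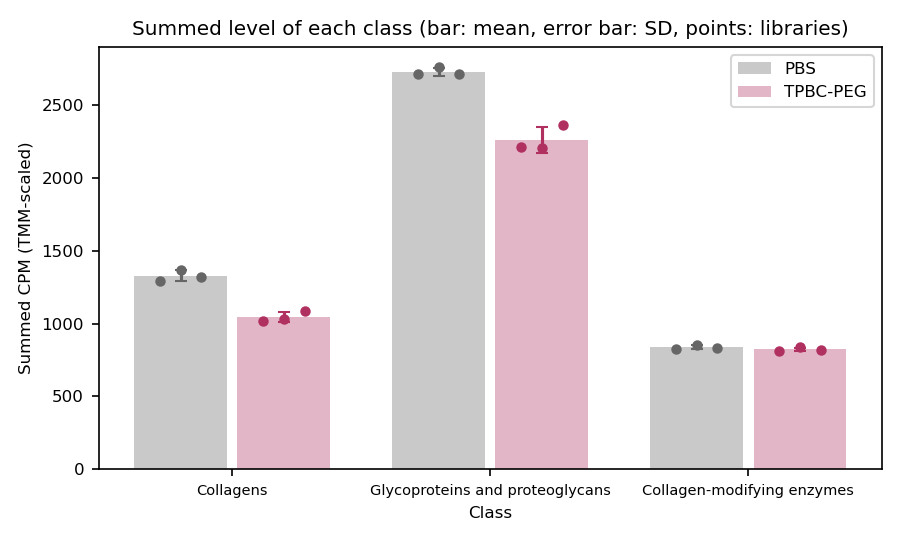
Summed CPM (TMM-scaled) of the collagens, the glycoproteins with proteoglycans, and the collagen-modifying enzymes; bars are means, error bars SD, points the 3 libraries of each group. The first 2 classes are separated between groups, while the enzyme sums overlap at 827 to 852 CPM with PBS and 812 to 836 CPM with TPBC-PEG. The enzyme sums include LOX, which rose, while 6 of the 11 enzymes fell.

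The classes also differed in their counts of calls. Of 14 tested collagens 11 fell and none rose, and their median was -0.34 on the log2 scale. Of 20 tested glycoproteins and proteoglycans 17 fell and 1, TNC, rose, with a median of -0.45. Of 11 enzymes 6 fell and 3 rose, with a median of -0.17. These shares are to be read beside the 16.9% lower and 16.2% higher among all genes, and the differences between the classes were not tested, since genes are not replicates.

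**Figure D2:**
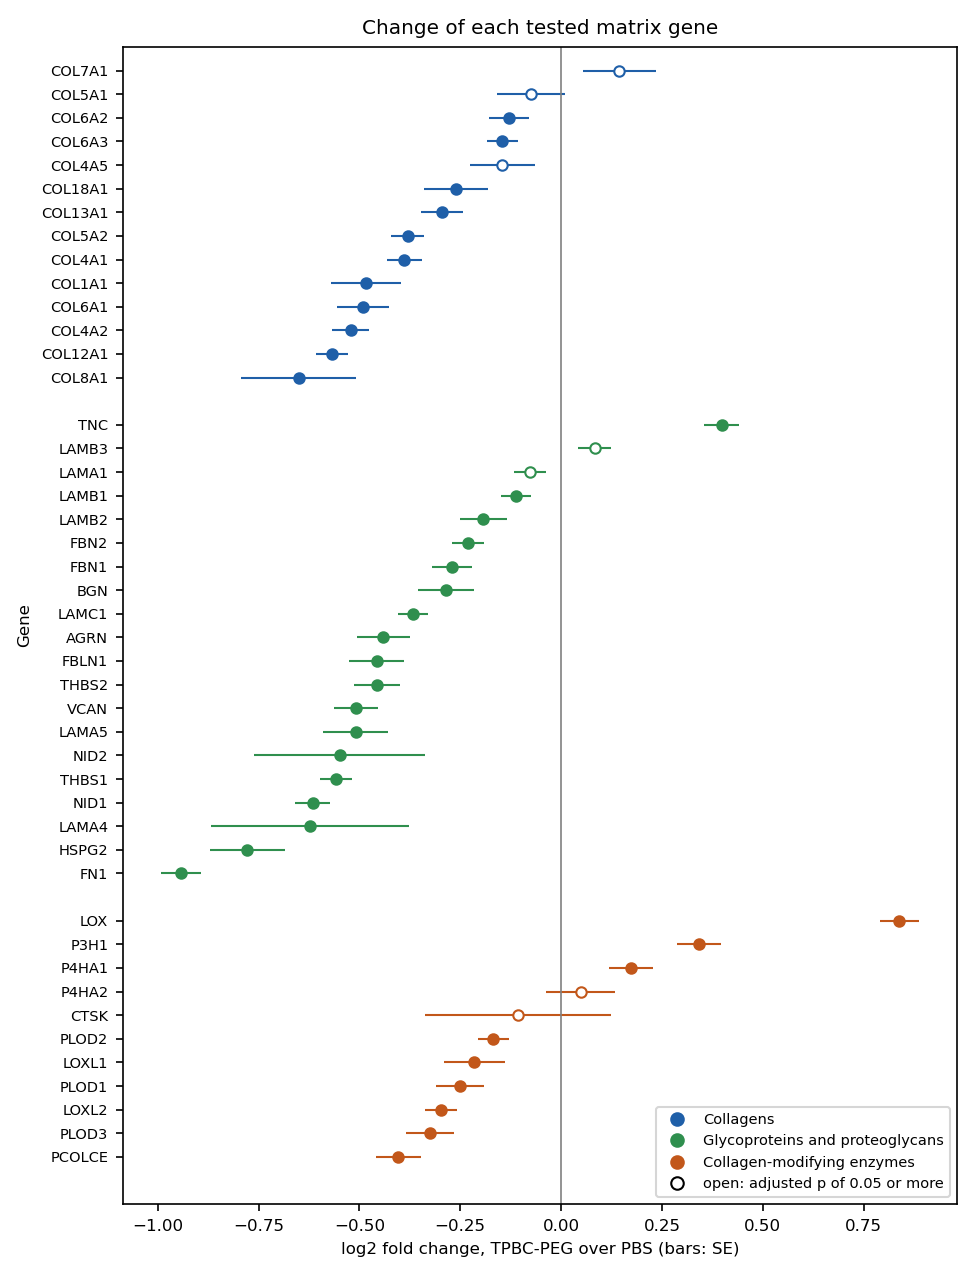
Log2 fold change of TPBC-PEG over PBS for the 45 tested genes, by class, with SE bars; open circles have an adjusted p of 0.05 or more. Values run from -0.94 for FN1 to 0.84 for LOX, and all collagens but COL7A1 lie below 0.

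Type I collagen was represented by 1 of its 2 chains. COL1A1, its alpha-1 chain, stood at 24.7, 29.9 and 27.6 CPM with PBS and at 17.6, 18.8 and 22.7 CPM with TPBC-PEG, without overlap, and fell by 0.48 on the log2 scale (SE 0.087, adjusted p = 2.01e-05). COL1A2, its alpha-2 chain, had 0 to 2 counts in each library. COL3A1, the type III chain, had 0 to 7 counts, and COL11A1, a type XI chain, 0 to 2 counts. At this depth no change in these 3 chains could be read. Of the type V chains, which set the width of collagen fibrils, COL5A2 stood at 153, 156 and 161 CPM with PBS and 119, 122 and 119.5 CPM with TPBC-PEG and fell by 0.38 (SE 0.041, adjusted p = 1.83e-10). COL5A1 stood at 19.1 to 23.4 CPM with PBS and 19.7 to 21.3 CPM with TPBC-PEG, with a log2 fold change of -0.08 and a 95% confidence interval from -0.25 to 0.09.

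Type IV collagen forms the network of basement membranes, and COL4A2 was the most abundant collagen chain per length. Per kb of messenger RNA, COL4A2 had 29.3 CPM and COL4A1 23.9 CPM with PBS. COL4A2 (chromosome 13, 110305812 to 110513209, GRCh38) stood at 175, 198 and 198 CPM with PBS and at 127, 129.8 and 141 CPM with TPBC-PEG. All TPBC-PEG libraries lay below all PBS libraries. COL4A2 fell by 0.52 on the log2 scale (SE 0.046, adjusted p = 1.75e-11). COL4A1, its partner chain, dropped from 158 ± 2.57 CPM (SD, n = 3) to 121 ± 6.99 CPM (log2 fold change -0.39, SE 0.043, adjusted p = 3.34e-10). The per-kb ratio of COL4A1 to COL4A2 was 0.870, 0.787 and 0.794 in the PBS libraries and 0.876, 0.916 and 0.889 in the TPBC-PEG libraries. The 2 ranges nearly met, with 0.870 against 0.876. COL4A5, an X-linked chain of the same family, was not called, at 25.2 ± 2.01 CPM with PBS and 22.8 ± 1.56 CPM with TPBC-PEG.

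COL4A1 and COL4A2 are transcribed away from each other from neighbouring starts, so 1 short stretch lies before both. In the RefSeq promoter table (GRCh38.p14) 126 bases separate the 2 starts, chr13:110307158-110307283, shown here on the plus strand, which is the COL4A2 sense strand. Capitals mark a CCAAT motif at bases 22 to 26 and a GC box, GGGCGG, at bases 62 to 67.
COL4A1-COL4A2: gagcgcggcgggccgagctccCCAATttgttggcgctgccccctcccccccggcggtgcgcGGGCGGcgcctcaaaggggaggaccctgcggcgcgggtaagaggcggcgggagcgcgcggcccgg
Both genes fell. Their windows overlap in these bases, so both hold the matches marked here. The COL4A1 window holds a further GC box outside them, at -249 to -244. CCAAT stands in 32.0% and GGGCGG in 42.6% of all windows.

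COL8A1, a short-chain collagen of vascular and corneal matrix, had the largest change among the collagens. It stood at 8.76, 7.54 and 7.63 CPM with PBS and at 4.83, 4.92 and 5.58 CPM with TPBC-PEG. The groups did not overlap, and the log2 fold change was -0.65 (SE 0.14, adjusted p = 0.000272), on counts of 89 to 168 in a library.

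The chains of type VI collagen, which forms beaded filaments around cells, did not move by the same amount. COL6A1 stood at 52.4, 50.7 and 52.9 CPM with PBS and at 34.4, 35.2 and 41.7 CPM with TPBC-PEG, all lower, and fell by 0.49 on the log2 scale (SE 0.065, adjusted p = 2.54e-08). COL6A3 fell less, from 253 ± 11.0 to 229 ± 5.02 CPM (log2 fold change -0.15, adjusted p = 0.00248). COL6A2 went from 83.8 ± 3.99 to 76.8 ± 2.45 CPM (-0.13, adjusted p = 0.0403). The per-kb ratio of COL6A1 to COL6A2 was 0.517, 0.469 and 0.537 with PBS and 0.379, 0.374 and 0.430 with TPBC-PEG, and that of COL6A2 to COL6A3 was 1.03 ± 0.0050 with PBS and 1.04 ± 0.029 with TPBC-PEG. The first ratio did not overlap between groups and the other did. The COL6A2 call ended on leaving out PBS replicate 2 (adjusted p = 0.197), or either of TPBC-PEG replicates 1 and 2 (0.182 and 0.0931). With an offset for GC content its log2 fold change was -0.04 and its adjusted p 0.600. It was also not called by library size alone (-0.09, adjusted p = 0.204), upper quartile scaling (0.0515), DESeq2 (0.0739) or the expression-level offset (0.127). COL6A3 was no longer called with an offset for expression level, at -0.07 (adjusted p = 0.164).

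COL12A1, which decorates the surface of collagen fibrils, stood at 220.2, 219 and 208 CPM with PBS and at 145, 139.9 and 152 CPM with TPBC-PEG. Every TPBC-PEG library lay below every PBS library, and the fall was 0.57 on the log2 scale (SE 0.041, adjusted p = 3.37e-16). COL13A1, a membrane-bound collagen found at cell contacts, stood at 84.0, 93.4 and 86.8 CPM with PBS and 72.0, 67.0 and 76.8 CPM with TPBC-PEG. It fell by 0.30 (SE 0.052, adjusted p = 1.17e-05). COL18A1, the basement membrane collagen from which endostatin is cut, stood at 30.7, 30.4 and 28.3 CPM with PBS and 23.4, 22.9 and 28.8 CPM with TPBC-PEG. It was called lower by 0.26 (adjusted p = 0.00776), but TPBC-PEG replicate 3 lay inside the PBS range. Leaving out TPBC-PEG replicate 1 (-0.22, adjusted p = 0.0616) or TPBC-PEG replicate 2 (-0.20, adjusted p = 0.0891) ended its call, as did the GC offset (-0.17, adjusted p = 0.1000), and 16.4% of its exon length overlaps SLC19A1 on the other strand. COL7A1, the anchoring fibril collagen, stood at 17.0 ± 2.04 CPM with PBS and 18.8 ± 0.358 CPM with TPBC-PEG and was not called (adjusted p = 0.234).

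Fibronectin, the adhesive glycoprotein that integrins gather into fibrils, had the largest change of the 45 genes. FN1 (chromosome 2, 215360440 to 215436172, minus strand, GRCh38) stood at 146, 159.5 and 154 CPM with PBS and at 83.0, 72.0 and 84.9 CPM with TPBC-PEG. The highest treated library was far below the lowest control library. The log2 fold change was -0.94 (SE 0.050, 95% confidence interval -1.04 to -0.84, adjusted p = 1.05e-17), and FN1 was the 1 member still called lower when tested against a change of 1.5-fold.

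The FN1 promoter is printed because it was the only tested gene of the set with a window holding the full cyclic AMP response element, TGACGTCA, which 1.65% of 35116 RefSeq windows hold. The 250 bases before the start lie at chr2:215436069-215436318, minus strand, GRCh38.p14. Capitals mark the element at -183 to -176, a CCAAT at -162 to -158, and 6 GC boxes, GGGCGG, of which some overlap, from -129 to -44.
FN1: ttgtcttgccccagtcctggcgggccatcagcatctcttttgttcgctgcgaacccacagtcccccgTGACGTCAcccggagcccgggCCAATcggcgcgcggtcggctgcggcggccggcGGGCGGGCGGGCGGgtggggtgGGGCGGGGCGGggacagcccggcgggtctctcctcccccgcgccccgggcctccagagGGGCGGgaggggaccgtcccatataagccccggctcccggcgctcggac

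Thrombospondins are secreted glycoproteins that bind matrix and cell surface receptors, and both members of the set fell. THBS1 averaged 339.6 ± 12.4 CPM with PBS and 231 ± 13.5 CPM with TPBC-PEG (log2 fold change -0.56, SE 0.040, adjusted p = 8.02e-16). THBS2 stood at 64.7, 62.3 and 63.7 CPM with PBS and at 45.7, 43.7 and 49.8 CPM with TPBC-PEG, with no overlap. It fell by 0.46 (SE 0.057, adjusted p = 7.24e-09).

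The THBS2 promoter is shown because 4 of 37 windows of tested members hold GGAATG, the TEAD motif, and THBS2 holds it at 2 places. TEAD factors are the DNA-binding partners of YAP and TAZ in the Hippo pathway, which the series title names. The other 3 were THBS1, FBN1 and COL12A1. The 4 windows are 10.8% of the 37, which is no more than the 11.9% of all windows that hold the motif. The window is chr6:169253847-169254096, minus strand, GRCh38.p14. Capitals mark GGAATG, read on the opposite strand as CATTCC at -103 to -98 and directly at -91 to -86, an ACGTG at -79 to -75 and a TATA box, TATAAA, at -29 to -24.
THBS2: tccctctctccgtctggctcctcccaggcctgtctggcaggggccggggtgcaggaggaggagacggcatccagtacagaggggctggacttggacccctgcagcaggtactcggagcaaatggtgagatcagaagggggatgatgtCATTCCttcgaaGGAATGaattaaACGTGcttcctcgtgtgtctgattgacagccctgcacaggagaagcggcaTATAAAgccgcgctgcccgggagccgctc
All 4 genes with the motif fell, as did most of the set.

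Tenascin C, a matrix protein of wounds, tumours and developing bone that loosens adhesion to fibronectin, moved the other way. TNC stood at 116, 118 and 121 CPM with PBS and at 146, 159.9 and 163 CPM with TPBC-PEG. All TPBC-PEG libraries were higher. The log2 fold change was 0.40 (SE 0.044, adjusted p = 2.16e-10). Per kb, FN1 and TNC had nearly the same level with PBS, with FN1 over TNC at 1.08, 1.16 and 1.09 in the 3 libraries. With TPBC-PEG that ratio was 0.487, 0.386 and 0.448. The TNC window, chr9:115118158-115118407, minus strand, GRCh38.p14, is printed as the 1 glycoprotein that rose. Of the motifs searched it holds a single GC box, in capitals at -229 to -224.
TNC: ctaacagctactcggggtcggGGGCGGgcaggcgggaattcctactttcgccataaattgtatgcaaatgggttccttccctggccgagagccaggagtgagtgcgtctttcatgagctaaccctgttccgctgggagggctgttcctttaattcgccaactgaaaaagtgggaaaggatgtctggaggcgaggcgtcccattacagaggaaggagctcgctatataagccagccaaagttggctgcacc

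**Figure D3:**
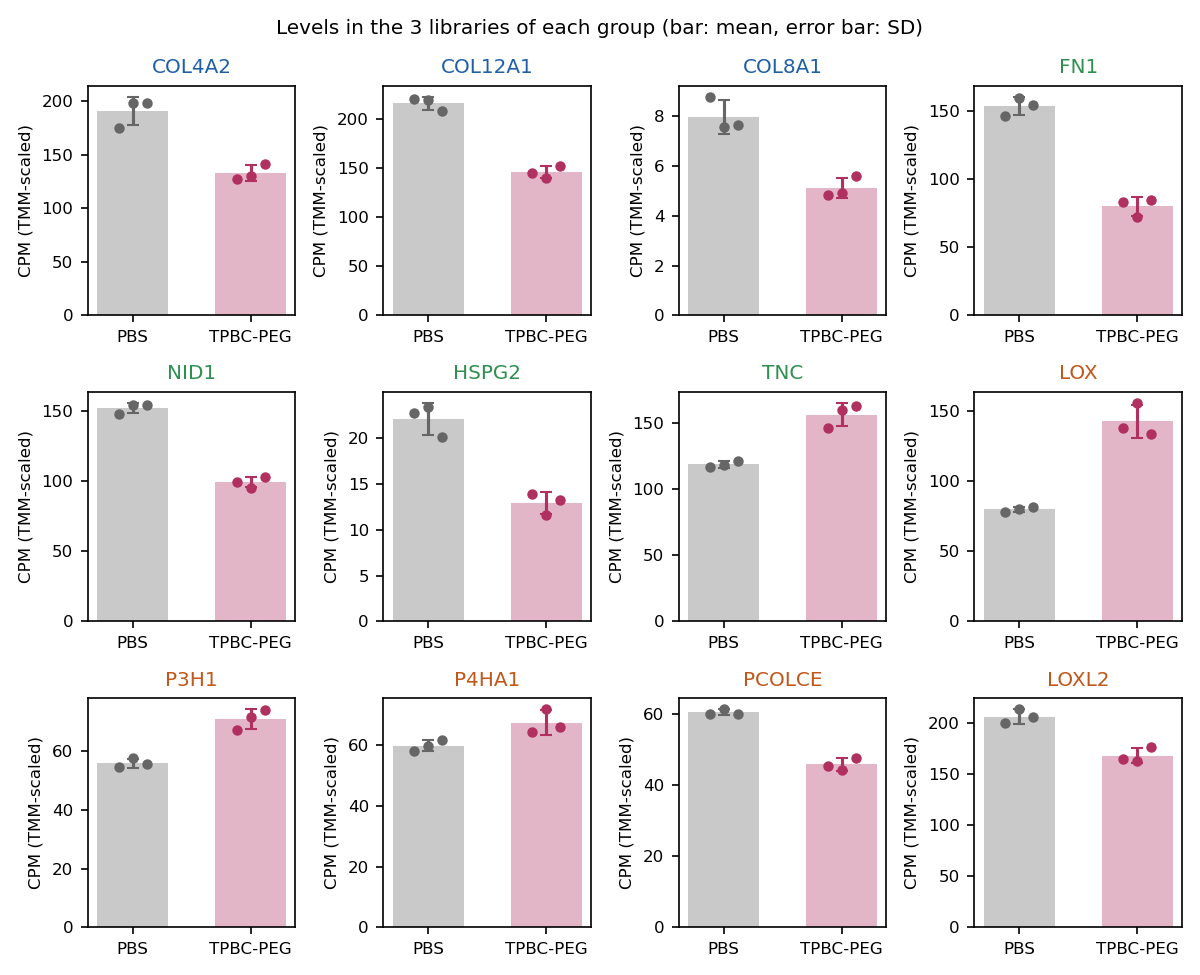
TMM-scaled CPM of 12 matrix genes in the 3 PBS and 3 TPBC-PEG libraries; bars are means, error bars SD, points single libraries, and each panel has its own axis from 0. COL4A2, COL12A1, COL8A1, FN1, NID1, HSPG2, PCOLCE and LOXL2 are lower with TPBC-PEG, and TNC, LOX, P3H1 and P4HA1 are higher. No panel shows overlap between groups, but all 12 are called genes, and 43.4% of all genes did not overlap.

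Laminins are trimers of an alpha, a beta and a gamma chain that form the cell-side sheet of the basement membrane. LAMB1, the beta-1 chain, was the most abundant gene of the set per length, at 100.2 CPM per kb with PBS. It stood at 565, 589 and 579 CPM with PBS and at 521, 524 and 558 CPM with TPBC-PEG. Its fall was small, 0.11 on the log2 scale (SE 0.037, adjusted p = 0.0137). LAMC1, the gamma-1 chain, fell more, from 284 ± 3.11 to 219.7 ± 3.27 CPM (-0.37, SE 0.037, adjusted p = 2.06e-11). The per-kb ratio of LAMB1 to LAMC1 was 2.76, 2.82 and 2.78 with PBS and 3.25, 3.31 and 3.42 with TPBC-PEG, with no overlap. Leaving out TPBC-PEG replicate 1 or 2 ended the LAMB1 call (adjusted p = 0.112 and 0.0935), as did scaling by library size alone (adjusted p = 0.138) and the expression-level offset (adjusted p = 0.777).

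The alpha chains, which bind integrins and dystroglycan, differed among themselves. LAMA5 fell from 59.2 ± 5.05 to 41.9 ± 5.59 CPM (-0.51, SE 0.082, adjusted p = 7.52e-05). LAMA4 was low, with 25 to 48 counts in a library. Its values were 2.50, 2.60 and 2.65 CPM with PBS and 2.11, 1.35 and 1.57 CPM with TPBC-PEG, and it was called lower by 0.62 (SE 0.25, adjusted p = 0.0453). That call was lost on leaving out any single library except TPBC-PEG replicate 1, with adjusted p from 0.0659 to 0.201, with library size alone (0.0654), with no filter (0.0705) and with DESeq2 (0.105). LAMA1 was not called, at 148 ± 2.90 and 141 ± 2.62 CPM (adjusted p = 0.146), although its groups did not overlap, and 11.1% of its exon length overlaps other annotated genes. With an offset for transcript length LAMA1 was called lower (-0.14, adjusted p = 0.00644).

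Of the other beta chains, LAMB2 went from 55.7 ± 3.40 to 48.8 ± 2.09 CPM (-0.19, adjusted p = 0.00829). Leaving out PBS replicate 2 or TPBC-PEG replicate 2 ended the LAMB2 call (adjusted p = 0.0825 and 0.0690), as did the GC offset (adjusted p = 0.0559). LAMB3, a chain of the epithelial laminin-332, was second among the glycoproteins per length, at 48.0 CPM per kb with PBS. It stood at 204, 215 and 201 CPM with PBS and 212, 212 and 234 CPM with TPBC-PEG, overlapping, and was not called (0.08, adjusted p = 0.115). LAMB3 was called higher once PBS replicate 2 was left out (0.11, adjusted p = 0.0489), under scaling by library size alone (0.13, adjusted p = 0.0151) and under the GC or expression-level offset (adjusted p = 0.0159 and 0.00287).

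The nidogens and perlecan, which join the laminin sheet to type IV collagen, were called lower, as was agrin. NID1, nidogen-1, stood at 148, 154 and 154 CPM with PBS and at 99.3, 95.4 and 103 CPM with TPBC-PEG. The groups were well apart, and the fall was 0.62 on the log2 scale (SE 0.043, adjusted p = 2.18e-16). HSPG2, which encodes perlecan, stood at 22.7, 23.4 and 20.1 CPM with PBS and at 13.9, 11.6 and 13.2 CPM with TPBC-PEG. It fell by 0.78 (SE 0.093, adjusted p = 2.04e-09), and 11.7% of its exon length overlaps LDLRAD2. AGRN, agrin, a proteoglycan that gathers receptors at nerve endings, fell from 122 ± 10.6 to 90.2 ± 8.03 CPM (-0.44, adjusted p = 3.90e-05). NID2, nidogen-2, was low, at 3.31 ± 0.251 and 2.27 ± 0.197 CPM, and 30.0% of its exon length overlaps RTRAF. Its call (-0.55, adjusted p = 0.0397) was lost on leaving out any 1 of the 6 libraries, with adjusted p from 0.0548 to 0.135, and with library size alone (0.0608), no filter (0.0694) and DESeq2 (0.0946).

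The remaining glycoproteins and proteoglycans belong to the interstitial matrix, and those tested all fell. FBN1 and FBN2, the fibrillins of elastic microfibrils, fell by 0.27 and 0.23 on the log2 scale (adjusted p = 2.47e-05 and 7.83e-06). FBLN1, fibulin-1, which binds fibronectin and basement membrane proteins, fell from 37.5 ± 1.16 to 27.4 ± 1.00 CPM (-0.46, adjusted p = 4.19e-07). VCAN, versican, a large proteoglycan that binds hyaluronan, fell from 87.7 ± 4.75 to 61.7 ± 5.32 CPM (-0.51, adjusted p = 4.55e-10). BGN, biglycan, a small proteoglycan of bone, fell from 37.5 ± 3.36 to 30.9 ± 1.19 CPM (-0.28, adjusted p = 0.00106). LUM, lumican, had 2 counts in 1 PBS library and 0 in the other 5 libraries.

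Lysyl oxidase, the copper enzyme that starts the crosslinking of collagen and elastin, rose while its 2 relatives in the set fell. LOX (chromosome 5, 122063195 to 122078360, minus strand, GRCh38) stood at 78.1, 79.7 and 81.4 CPM with PBS and at 138, 155 and 133 CPM with TPBC-PEG. Every treated library was above every control library. The rise was 0.84 on the log2 scale (SE 0.049, 95% confidence interval 0.74 to 0.94, adjusted p = 2.45e-18), and LOX was the 1 gene of the set called higher against a 1.5-fold change. LOXL2, the most abundant enzyme per length at 58.0 CPM per kb, stood at 199, 213 and 205 CPM with PBS and at 165, 162 and 176 CPM with TPBC-PEG. It fell by 0.30 (SE 0.040, adjusted p = 5.26e-08). The per-kb ratio of LOX to LOXL2 was 0.273, 0.260 and 0.276 in the PBS libraries and 0.583, 0.667 and 0.528 in the TPBC-PEG libraries. LOXL1, which is needed for elastic fibres, went from 30.0 ± 0.998 to 26.0 ± 2.75 CPM (-0.22, adjusted p = 0.0241). Leaving out PBS replicate 1 or 2 (adjusted p = 0.0678 and 0.0626) or TPBC-PEG replicate 2 (-0.13, adjusted p = 0.277) ended the LOXL1 call, as did the GC offset (-0.12, adjusted p = 0.228), library size alone (0.0841) and DESeq2 (0.0634).

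The LOX promoter is printed as that of the member with the largest rise. Its window is chr5:122078260-122078509, minus strand, GRCh38.p14. Capitals mark ACGTG, the core bound by hypoxia-inducible and related factors, at -185 to -181, -98 to -94 and -42 to -38 and as CACGT on the opposite strand at -116 to -112, with a CCAAT at -109 to -105 and a GC box at -79 to -74. ACGTG stood in 7 of 37 windows of tested members and in 18.5% of all windows.
LOX: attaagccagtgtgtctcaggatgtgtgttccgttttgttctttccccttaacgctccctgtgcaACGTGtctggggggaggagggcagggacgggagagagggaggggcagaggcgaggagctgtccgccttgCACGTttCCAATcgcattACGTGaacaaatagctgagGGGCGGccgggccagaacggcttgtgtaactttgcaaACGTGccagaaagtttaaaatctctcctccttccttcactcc

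All 3 lysyl hydroxylases, which prepare lysines for crosslinks and sugars, fell. PLOD3, which also adds sugars to collagen, stood at 48.2, 49.8 and 49.5 CPM with PBS and at 38.7, 39.3 and 39.9 CPM with TPBC-PEG (-0.32, SE 0.060, adjusted p = 2.15e-05). PLOD1, which acts on the helix, stood at 62.0, 72.5 and 61.0 CPM with PBS and at 57.3, 55.4 and 51.4 CPM with TPBC-PEG (-0.25, SE 0.060, adjusted p = 0.000974). PLOD2, which acts on the ends of the chains, stood at 215, 205 and 209 CPM with PBS and at 186, 189 and 185 CPM with TPBC-PEG (-0.17, SE 0.038, adjusted p = 0.000485). No lysyl hydroxylase overlapped between groups, beside 43.4% of all genes without overlap and 16.9% called lower. PLOD2 was the most abundant of them at 56.2 CPM per kb with PBS.

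Prolyl hydroxylases stabilise the triple helix, and 2 of the 3 in the set rose. P3H1, the prolyl 3-hydroxylase of type I collagen, stood at 54.7, 57.7 and 55.7 CPM with PBS and at 67.4, 71.6 and 74.2 CPM with TPBC-PEG. It rose by 0.34 on the log2 scale with no overlap (SE 0.054, adjusted p = 1.19e-06). P4HA1, a catalytic subunit of prolyl 4-hydroxylase, stood at 58.1, 59.6 and 61.5 CPM with PBS and at 64.2, 71.8 and 66.0 CPM with TPBC-PEG, a rise of 0.17 (SE 0.054, adjusted p = 0.0101). Leaving out PBS replicate 1 (0.15, adjusted p = 0.0642) or TPBC-PEG replicate 2 (0.12, adjusted p = 0.144) ended the P4HA1 call, as did the GC offset (0.12, adjusted p = 0.0779). P4HA2, the alternative subunit, was not called, at 19.2 ± 0.855 CPM with PBS and 19.8 ± 1.54 CPM with TPBC-PEG (95% confidence interval of the log2 fold change -0.12 to 0.22).

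A procollagen processing factor and a collagen-cleaving protease complete the class. PCOLCE, which speeds the removal of the procollagen C-propeptide, stood at 60.0, 61.4 and 60.0 CPM with PBS and at 45.4, 44.2 and 47.7 CPM with TPBC-PEG. It fell by 0.40 (SE 0.056, adjusted p = 1.01e-07), and 16.6% of its exon length overlaps the antisense gene PCOLCE-AS1, whose reads cannot be told apart if counting ignored strand. CTSK, cathepsin K, a collagen-degrading protease of osteoclasts, was at 2.47 ± 0.0332 CPM with PBS and 2.28 ± 0.517 CPM with TPBC-PEG and was not called (adjusted p = 0.774).

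**Figure D4:**
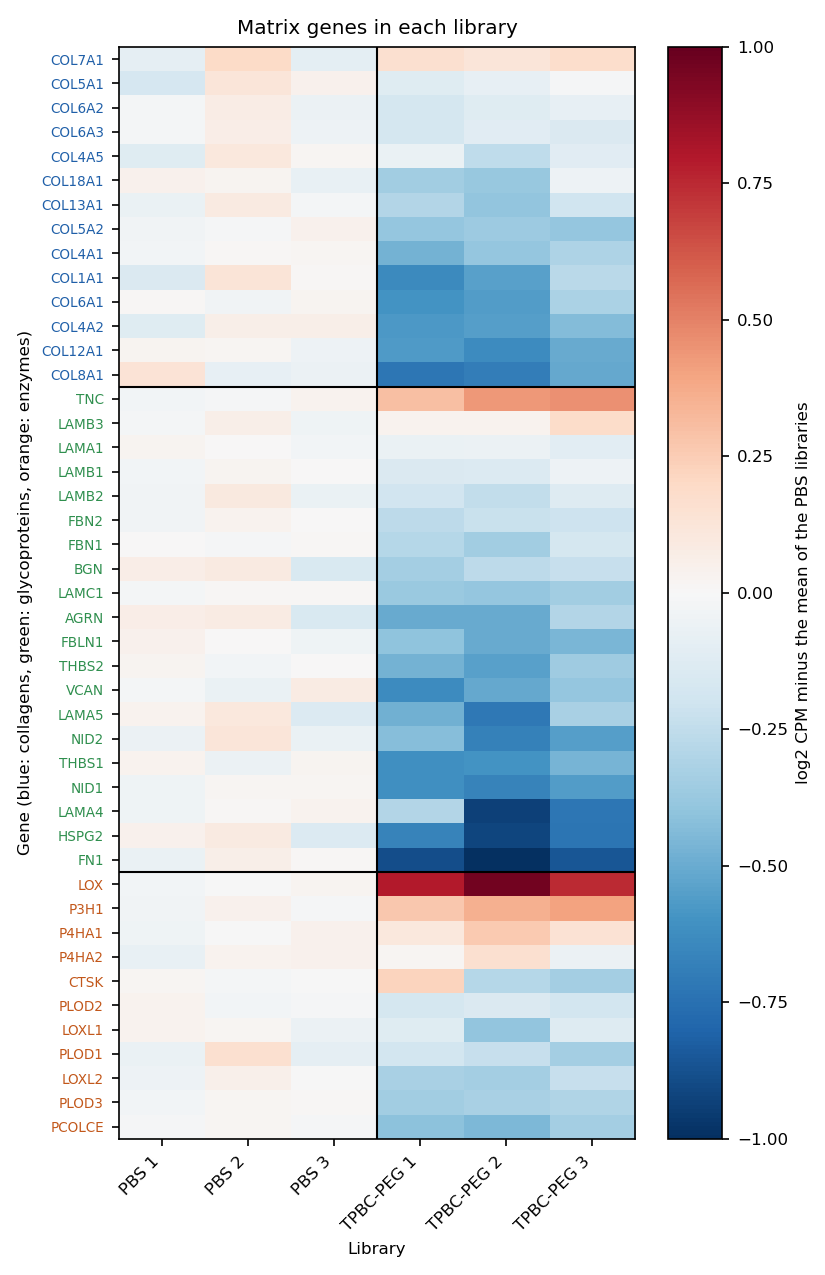
Log2 CPM of each tested gene in each library, minus the mean of the 3 PBS libraries, by class and in order of fold change; blue is lower and red higher, and the scale ends at -1 and 1. TPBC-PEG replicate 3 is paler than the other treated libraries for many genes that fell.

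For the matrix genes the treated libraries were not equally far from the controls. Among the 34 genes that fell, TPBC-PEG replicate 3 had the highest of the 3 treated values in 25, replicate 1 in 6 and replicate 2 in 3. Replicate 2 had the lowest in 17, replicate 1 in 15 and replicate 3 in 2. The same count over all genes called lower was not made, so whether the order is particular to the matrix genes was not tested. TPBC-PEG replicate 3 also had the fewest counts of the 6 libraries, 15726323, and the part of this in the pattern was not tested. Of the 4 genes that rose, the highest treated value was in replicate 2 for 2 genes and in replicate 3 for the other 2.

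Promoter windows were found for 37 of the 45 tested genes, 10 collagens, 18 glycoproteins and 9 enzymes, with 1 window each taken at the RefSeq start farthest upstream. No window was matched for COL1A1, COL5A2, COL8A1, COL6A1, LAMA1, AGRN, LOXL2 and CTSK. Each motif was searched on both strands of the 250 bases before the start. GGGCGG stood in 28 of the 37 windows and in 42.6% of all windows, and CCAAT in 11 and in 32.0%. TATAAA stood in 5, and in 10.7% of all windows. The CArG box of serum response factor, CC and GG around 6 bases of A or T, stood in 1 window, that of PLOD1, and in 1.16% of all windows. The AP-1 motif TGANTCA, the unfolded protein response element core TGACGTG and the ATF4 element TGATGCAA stood in none of the 37 and in 6.57%, 1.68% and 0.772% of all windows. The endoplasmic reticulum stress element, CCAAT and CCACG spaced by 9 bases, also stood in none, and in 0.0740% of all windows. With only 37 windows, finding none of motifs this rare does not show that the set lacks them more than other genes. TGACGTG and TGACGTCA share bases with ACGTG. In GENCODE 29 the longest extents of FN1, THBS2, TNC, LOX, COL4A1 and COL4A2 begin inside or upstream of the printed windows, so some of the printed bases are transcribed in that annotation. These are matches of letters in a short window and show no binding.

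**Figure D5:**
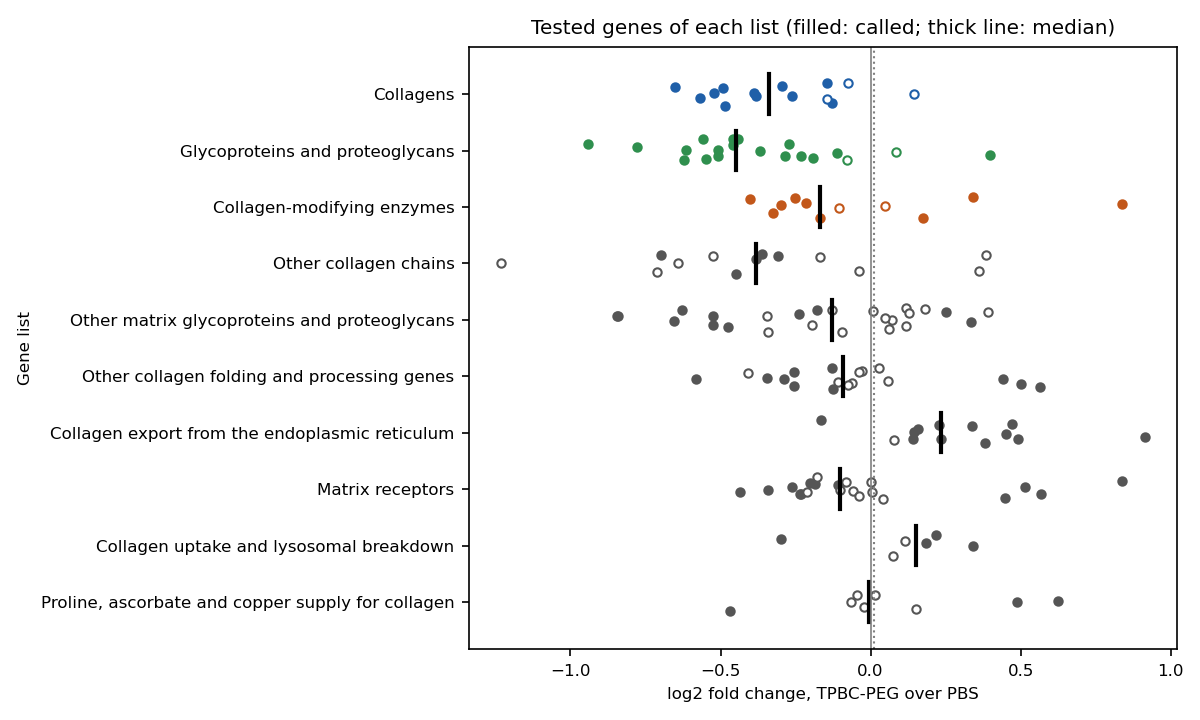
Log2 fold change of each tested gene in the 3 classes and in 7 other lists of collagen-related genes; filled points were called, thick black lines are medians, and the dotted line is the median of all genes. The export list lies mainly above 0, with a median of 0.24, and the collagen, glycoprotein and other collagen chain lists mainly below it.

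Genes around the 3 classes were counted in 7 further lists, each to be read beside the 16.9% lower and 16.2% higher among all genes. These lists too were chosen with earlier results of these data known. Of 13 other collagen chains tested, 5 fell (38.5%) and none rose, and the median was -0.38 on the log2 scale. COL24A1, COL17A1 and COL9A2 fell by 0.70, 0.45 and 0.38 (adjusted p = 0.00820, 0.0335 and 0.0128). Of 25 other glycoproteins and proteoglycans 9 fell and 2 rose, with a median of -0.13. EFEMP1, fibulin-3, fell from 86.8 ± 2.67 to 48.5 ± 4.96 CPM (-0.84, SE 0.058), TINAGL1 by 0.84 and TGFBI, which links collagens to integrins, by 0.65 (adjusted p = 9.48e-16, 1.81e-07 and 3.51e-18). LAMA3, the alpha chain that partners LAMB3, rose by 0.33 and LTBP4, a binder of latent TGF-beta, by 0.25 (adjusted p = 0.000737 and 0.00192).

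Of 18 other folding and processing genes 3 rose (16.7%) and 7 fell (38.9%), against 16.2% higher and 16.9% lower among all genes, so the share that rose is that of all genes. FKBP14, a prolyl isomerase, stood at 68.6, 75.0 and 63.8 CPM with PBS and at 103, 105 and 99.4 CPM with TPBC-PEG (0.56, adjusted p = 8.90e-13). P4HB, the partner subunit of P4HA1, rose from 376 ± 0.627 to 532 ± 16.8 CPM (0.50, adjusted p = 5.57e-16). PPIB, the cyclophilin that works in a complex with P3H1, rose by 0.44 (adjusted p = 3.08e-14), and 27.2% of its exon length overlaps SNX22. ADAMTS3, a procollagen N-proteinase, fell by 0.58, LOXL3 by 0.35 and P3H2 by 0.29 (adjusted p = 4.81e-06, 0.0361 and 6.76e-05). The LOXL3 groups overlapped, at 8.01 to 12.4 CPM with PBS and 7.33 to 8.47 CPM with TPBC-PEG. Of its exon length 19.3% overlaps other genes.

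Of 13 genes listed for export from the endoplasmic reticulum, not all of them specific to collagen, 11 rose and 1 fell. The median was 0.24, and 16.2% were called higher among all genes. SEC24D, a cargo-binding coat subunit of export vesicles, stood at 56.7, 57.9 and 56.1 CPM with PBS and at 106, 114 and 101 CPM with TPBC-PEG, far apart. It rose by 0.92 (SE 0.051, adjusted p = 3.75e-20). MIA2, a receptor at export sites, rose by 0.47 and CREB3L1, a membrane-bound factor of bone matrix secretion, by 0.49 at only 2.90 ± 0.336 CPM with PBS (adjusted p = 2.50e-07 and 0.0469). KLHL12, an adaptor for enlarging the vesicle coat, fell by 0.17 (adjusted p = 0.0248).

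Of 21 matrix receptors 4 rose (19.0%) and 8 fell (38.1%), with a median of -0.10; the share that rose is near the 16.2% among all genes, and 16.9% of all genes fell. ITGB1, the beta subunit shared by the collagen, laminin and fibronectin integrins, stood at 938, 939.8 and 917 CPM with PBS and at 701, 665 and 699 CPM with TPBC-PEG. ITGB1 fell by 0.44 with no overlap (SE 0.036, adjusted p = 3.54e-14). ITGB3 fell by 0.34 and SDC1, a cell surface proteoglycan, by 0.26 (adjusted p = 0.00191 and 5.24e-06), and 51.6% of the ITGB3 exon length overlaps another gene. ITGA11 and ITGA10, alpha subunits of collagen receptors, rose by 0.84 and 0.51 (adjusted p = 5.73e-07 and 0.0356). They were low, at 6.04 ± 0.756 and 2.94 ± 0.592 CPM with PBS. ITGA2 also rose, by 0.45, but ITGA1 fell by 0.19 (adjusted p = 9.37e-14 and 0.0102), and DDR1 was not called. DDR2, a receptor kinase for fibrillar collagen, rose from 127 ± 6.89 to 188 ± 5.67 CPM (0.57, adjusted p = 1.21e-15).

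Of 6 genes of collagen uptake and lysosomal breakdown 3 rose and 1 fell, beside 16.2% and 16.9% of all genes. LRP1, CTSL and CTSB rose by 0.34, 0.22 and 0.18 (adjusted p = 0.000134, 0.000224 and 0.000128), and MRC2, an endocytic receptor for collagen, fell by 0.30 (adjusted p = 0.000284). Of 8 genes that supply proline, ascorbate or copper 2 rose and 1 fell, and the 37.5% called is near the 33.2% among all genes. SLC31A1, the copper importer, rose from 49.1 ± 3.07 to 75.5 ± 5.41 CPM (0.62, adjusted p = 1.77e-12). PYCR1 and PYCR3 both make proline, and PYCR1 rose by 0.49 while PYCR3 fell by 0.47 (adjusted p = 1.97e-11 and 0.000241), with 29.7% of the PYCR1 exon length overlapping other genes.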

How the data were processed

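RNA of 143B cells was measured in 3 PBS and 3 TPBC-PEG libraries, grouped by their titles. The authors deposited raw read counts per gene for the 6 libraries. Per the submitters' processing notes, HISAT2 and the GRCh38 build were used. For the counting program, annotation and strand setting the sources used here give nothing. The extraction protocol in the labels speaks of animal tissue.

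Genes were kept by filterByExpr (minimum count 10, minimum total 15) and tested with edgeR 4.0.16 in R 4.3.3 (robust quasi-likelihood, TMM scaling, group as the only term), with Benjamini-Hochberg adjustment over 15846 genes and a call at 0.05. Confidence intervals are 95%. The code was tested on simulated data. Lengths and coordinates came from GENCODE 29 on GRCh38, with the longest coding transcript as length. Promoter sequences came from RefSeq (GRCh38.p14). Of the columns all matched a sample. With no molecular identifiers, counted reads may be copies of a molecule.

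The members and lists were chosen with earlier results of these data known. Values in every library were given for, in each class, the 4 called genes with the largest change per direction at 1 CPM or more, the 2 most abundant per kb and every gene called higher; other lists gave up to 3 called genes per direction. Chain and partner ratios, and single values of further members and of further genes of the lists, were picked after the values were seen. Other settings were DESeq2 size factors, library size alone, upper quartile scaling, no filter, 1 CPM in 3 libraries, DESeq2 1.42.0, limma-voom (limma 3.58.1), non-robust estimation, a test against 1.5-fold, the replicate number as a block, offsets for GC content, length or expression level (lowess, span 0.3), protein-coding genes alone and leaving out each library.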

Additional observations from a re-analysis of the deposited data

How the results depend on the processing

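Of the 38 called genes, 29 kept their call and direction in every setting but the test against a 1.5-fold change, and none of the 38 changed sign in any of the 21 settings. Against 1.5-fold, 1 gene was lower and 1 higher: 0 collagens lower, 1 glycoprotein lower and 0 higher, and 0 enzymes lower and 1 higher. The glycoproteins called higher were 2, TNC and LAMB3, under library size alone, the GC offset, the GC offset with the replicate block, the expression-level offset, and without PBS replicate 2. Leaving out 1 library at a time gave 27 to 32 genes lower and 3 to 5 higher. The sum of the enzymes changed by -1.78% as reported and by 1.22% with library size alone. P4HA2, not called, had log2 fold changes of -0.016 to 0.093 when a library was left out, the former on leaving out TPBC-PEG replicate 2. By library size alone, 62.0% of all calls were higher, against 48.97% with TMM, and the median of all genes moved by 0.043. Same-numbered PBS and TPBC-PEG libraries did not deviate together (r = 0.0034, 0.065 and -0.015 across genes), so the numbers were not taken as pairs, and with the replicate block 34 genes were lower and 4 higher, the same 38. LAMA4, NID2 and CTSK had at most 65 counts in a library, and their standard errors, 0.21 to 0.25, were the widest of the 45 genes.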
